A study of Mus musculus with 8 samples.

Results

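Translation factors are the proteins that start and extend protein synthesis on the ribosome. Their genes were taken as every row of the count table whose symbol begins with Eif1 to Eif6 or with Eef1 or Eef2, which gave 64 genes of 24454. RNA came from cells of the mouse yolk sac, the tissue around the embryo where the first blood forms, at embryonic stage E11.5. All embryos carried the miR144-451+/GFP allele on a C57BL/6 background, so GFP marks cells in which an erythroid microRNA locus is active, and every population compared here shares that allele. The populations were sorted by GFP and by VE-cadherin, the surface protein encoded by Cdh5. The double positive population (VE-cadherin+ GFP+) had 2 pools of 24 cells, the erythroid population (VE-cadherin- GFP+) had 3 pools of 25 cells, and the endothelial population (VE-cadherin+ GFP-) had 3 pools of 25 cells. The labels do not say whether pools came from separate embryos, so a p-value covers only the variation among these libraries, which may be technical.

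Initiation begins when eIF2, bound to GTP and the initiator tRNA, joins the small ribosomal subunit together with eIF1, eIF1A, eIF3 and eIF5. The eIF4 proteins bind the cap of the mRNA and unwind it, the 4E-binding proteins hold the cap-binding protein back, and eIF2B recharges eIF2 with GTP. A set of kinases phosphorylates eIF2 and so slows initiation, and one of them, the heme-regulated inhibitor encoded by Eif2ak1, is known in mouse red cells for matching globin synthesis to the supply of heme. The elongation factors eEF1 and eEF2 then bring tRNAs to the ribosome and move it along the mRNA.

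The libraries held between 3723128 and 7618444 counts, and the 64 genes took 1.10% and 1.07% of double positive counts, 0.877% to 0.910% of erythroid counts and 1.34% to 1.48% of endothelial counts. Globin mRNA took 8.85% and 14.0% of double positive, 54.5% to 56.5% of erythroid and at most 0.00404% of endothelial counts. The sorted labels were read against marker lists in normalised CPM, counts per unit of library size after scaling by TMM (trimmed mean of M values), which are therefore not shares of a library. The 6 endothelial markers summed to 262 and 383 CPM in double positive libraries, to 0 in erythroid libraries and to 2099 to 3119 CPM in endothelial libraries. The 6 erythroid markers summed to 78700 and 137400 CPM in double positive, 946300 to 1009000 CPM in erythroid and 15.3 to 24.6 CPM in endothelial libraries. The 6 visceral endoderm markers summed to 79560 and 81890 CPM in double positive libraries, with all 6 detected, against 9.46 to 19.99 CPM in erythroid and 22.1 to 36.3 CPM in endothelial libraries. The 6 macrophage markers summed to 88.5 and 123 CPM in double positive, 0 in erythroid and 797 to 1949 CPM in endothelial libraries, and the 4 mesenchyme markers to 167 and 134 CPM in double positive libraries and at most 2.12 CPM in the others. Double positive pools therefore carried transcripts of more than the 2 lineages they were sorted for, and endothelial pools carried macrophage transcripts. Their part in the results below was not tested, and in pools of sorted cells fewer cells of a type and less RNA per cell cannot be told apart.

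Of the 64 genes, 60 had enough counts to be tested among 12136 genes. The others were Eef1a2, Eif3j1 and Eif3j2 with 0 counts in every library and Eif4e1b with 1 count. Eif3j1 and Eif3j2, near-identical copies of an eIF3 subunit, share 54.8% and 91.8% of their 50-base exon words with other genes, so their 0 counts are uncertain. In all, 12 of the 64 genes share at least 20% of such words with another gene, among them Eef1a1 (60.6%), Eef1g (64.3%), Eif4ebp3 (65.5%), Eif3d (42.1%), Eif2s3x (36.2%), Eif4a1 (33.3%) and Eif1 (31.6%), and their counts are uncertain for that reason. The plot of all tested genes by library shows which of them separate the populations.

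**Figure D1:**
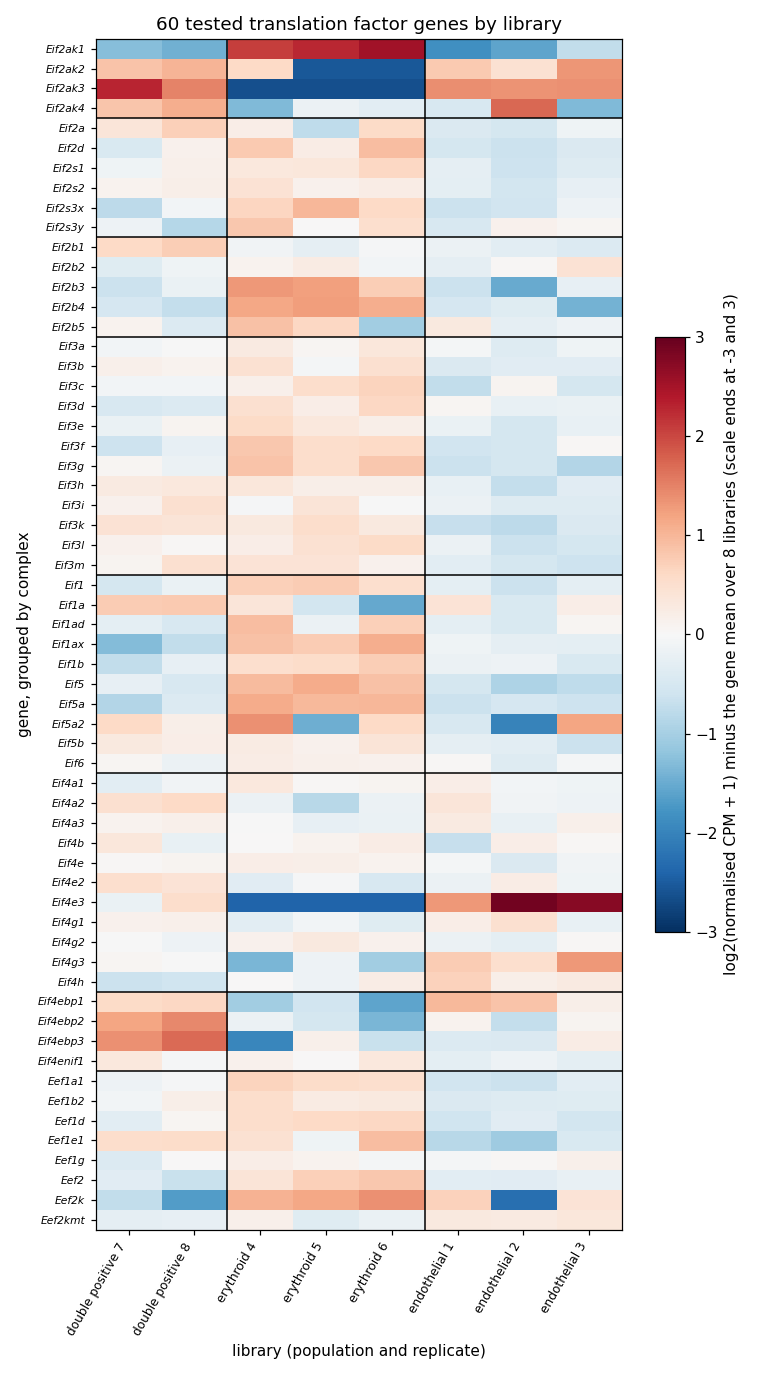
Each row is 1 of the 60 tested genes, grouped by complex and divided by black lines, and each column is 1 library. Colour gives log2(normalised CPM + 1) minus the gene's mean over the 8 libraries, with the scale ending at -3 and 3. Eif2ak1 is high in the 3 erythroid libraries, Eif2ak3 and Eif4e3 are at 0 in those libraries, and most eIF3, eIF1 and eIF5 rows are modestly higher there under this scaling.

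Eif2ak1 had the largest erythroid rise over endothelial libraries of the 60 tested genes. It lies on chromosome 5 (GRCm38 chr5:143817788-143904251, plus strand). Its normalised level was 29.1 and 25.9 CPM in double positive libraries, 307, 348 and 419 CPM in erythroid libraries, and 19.4, 23.1 and 42.5 CPM in endothelial libraries. All 3 erythroid libraries were far above the other 5, and double positive and endothelial libraries overlapped. Eif2ak1 was 12.6-fold higher in erythroid than in endothelial libraries (log2 difference 3.66, SE 0.31, adjusted p = 3.22e-05, edgeR quasi-likelihood test with Benjamini-Hochberg adjustment over all genes, as for every adjusted p of a gene here). Double positive libraries had 13.0-fold less of it than erythroid libraries (log2 difference -3.70, SE 0.37, adjusted p = 0.00011). Between double positive and endothelial libraries the log2 difference was -0.04 (SE 0.32, adjusted p = 0.948), which does not show that they are alike. The rise was smaller but still past the test with library size alone in place of TMM (log2 difference 2.12). Aimp2 overlaps Eif2ak1 on the other strand and could share reads with it if strand was not used. Under TMM Aimp2 was 2.22-fold higher in erythroid and 2.21-fold higher in double positive libraries than in endothelial libraries. The strand setting is not given, and the part of such reads in the Eif2ak1 level was not tested. The double positive call for Aimp2 was lost without either double positive library or without endothelial replicate 2 or 3 (adjusted p = 0.0998, 0.156, 0.0604 and 0.0678).

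The other eIF2 kinases had other patterns. Eif2ak3, the kinase of endoplasmic reticulum stress, had 29.4 and 16.5 CPM in double positive libraries, 0 in all 3 erythroid libraries, and 15.2, 14.8 and 15.2 CPM in endothelial libraries. Its level was at least 52.8-fold lower in erythroid than in endothelial libraries (adjusted p = 0.000373) and at least 80.5-fold higher in double positive than in erythroid libraries (adjusted p = 0.000367), counting the 0 as 3 counts over the erythroid group. Eif2ak2, which responds to double-stranded RNA, had 9.56 and 10.8 CPM in double positive libraries, 7.69, 0 and 0 CPM in erythroid libraries, and 8.99, 7.01 and 13.6 CPM in endothelial libraries. Its erythroid level did not pass the test against the endothelial one (log2 difference -1.88, adjusted p = 0.298), but without erythroid replicate 4, the library that held its counts, it did (at least 20.4-fold lower, counting the 0 as 3 counts over the remaining 2 libraries, adjusted p = 0.00222). Double positive libraries were then at least 21.1-fold higher than erythroid libraries (adjusted p = 0.00276). Eif2ak4, which senses uncharged tRNA, had 10.7 and 12.8 CPM in double positive libraries, 1.63, 4.76 and 4.24 CPM in erythroid libraries and 3.70, 20.5 and 1.62 CPM in endothelial libraries. It passed in no comparison, and endothelial replicate 2 lay far above the other 2 endothelial libraries.

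Dividing by exon length lets the kinases be compared within a library, free of any scaling between libraries. Eif2ak1 made up 42.3% ± 2.2 of the 4 kinases' counts per kilobase in double positive libraries (SD, n = 2), 98.6% ± 1.2 in the erythroid group (SD, n = 3) and 48.6% ± 10 in the endothelial group (SD, n = 3). The share was 50.1 points higher in erythroid than in endothelial libraries and the groups did not overlap. An exact two-sided permutation test gave p = 0.1, the smallest this design allows, and 0.196 after adjustment over the 51 shares compared here. Eif2ak3 followed Eif2ak1 in double positive libraries at 30.9% and in endothelial libraries at 24.6%. The plot of kinase levels shows each library.

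**Figure D2:**
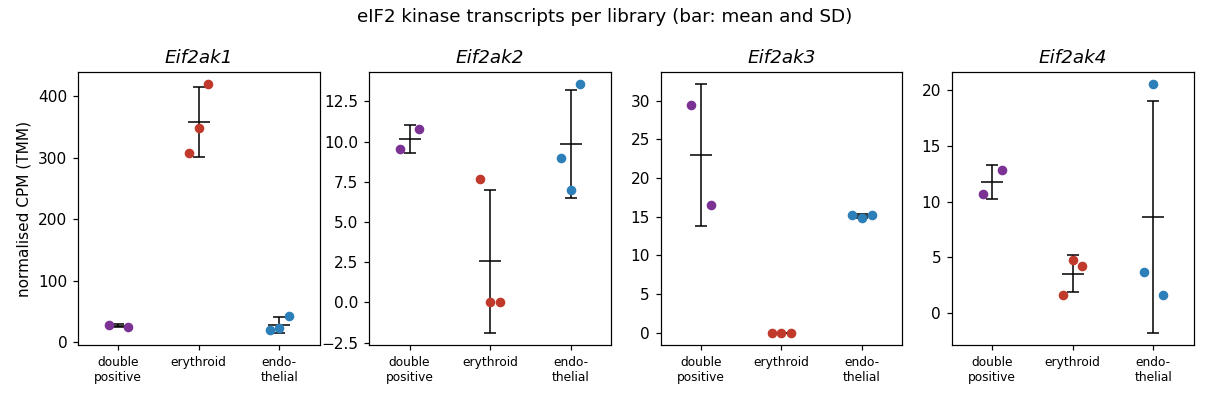
Normalised CPM of the 4 eIF2 kinase genes in each library, with a horizontal tick for the population mean and an error bar for the SD (n = 2 for double positive, n = 3 for erythroid and endothelial). The linear axes differ between panels, and some error bars extend below 0. Erythroid libraries hold 307 to 419 CPM of Eif2ak1 and 0 CPM of Eif2ak3.

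The promoters of these 2 kinases are shown because their levels moved in opposite directions. They are RefSeq windows (GRCm38.p6) from 250 bases before to 50 after the annotated start, with CCAAT and its reverse complement in capitals.

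Eif2ak1 (chr5:143817542-143817841, plus strand): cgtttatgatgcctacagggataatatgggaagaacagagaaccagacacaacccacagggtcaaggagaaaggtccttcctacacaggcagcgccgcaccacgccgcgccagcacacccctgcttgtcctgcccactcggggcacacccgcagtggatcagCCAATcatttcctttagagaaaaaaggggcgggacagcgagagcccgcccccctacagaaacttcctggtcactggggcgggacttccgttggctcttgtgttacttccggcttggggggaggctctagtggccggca

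Eif2ak3 (chr6:70844265-70844564, plus strand): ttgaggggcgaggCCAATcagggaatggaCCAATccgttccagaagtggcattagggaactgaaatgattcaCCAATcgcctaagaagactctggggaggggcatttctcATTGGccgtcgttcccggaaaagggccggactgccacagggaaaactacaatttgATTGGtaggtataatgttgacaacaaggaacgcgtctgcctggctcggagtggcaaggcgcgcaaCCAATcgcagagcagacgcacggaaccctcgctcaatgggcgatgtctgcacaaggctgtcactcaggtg

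CCAAT, counted on both strands, stood once in the Eif2ak1 window and 6 times in the Eif2ak3 window, and 37.4% of all 32851 promoter windows in the table hold at least 1. The erythroid factor motifs AGATAA and TGATAA, and CCACCC, were found on neither strand of either window. These letters occur in 11.2%, 9.05% and 31.5% of all windows. The motifs were chosen after the levels were seen, and a match or its absence describes only these letters in this window.

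Across the whole set, erythroid against endothelial libraries gave 28 genes higher and 4 lower of the 60 tested under TMM. Among all 12136 genes 14.4% were called higher, 26.6% lower and 41.0% either way. The libraries of the populations did not overlap for 41 of the 60 genes, against 50.8% of all genes. The median log2 difference was 0.57 for the 60 genes and -0.36 for all genes. The direction of most single genes turned with the scaling. With library size alone 1 gene was higher and 44 were lower, 23 of the 28 rises changed sign, and 18 were called lower. Among all genes 3.46% were higher and 59.9% lower under that scaling. The counts by complex below are to be read against these shares. A change of scaling moves nearly all genes by the same amount, and the all-gene median shifted by -1.54 with library size alone, so the distance of 0.93 between the 2 medians is nearly fixed whatever the scaling, and that it hardly moves is no sign of stability. The calls that held under TMM, library size alone and a TMM factor computed over the translation factor genes were Eif2ak1 higher and Eif2ak3, Eif4e3, Eif4ebp1 and Eif4g3 lower. Both other scalings moved the all-gene median down, by -1.54 and -0.57, so a lower call could hardly be lost. Only the Eif2ak1 call went against that shift. Below, too, a call in the direction of the shift could hardly be lost.

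**Figure D3:**
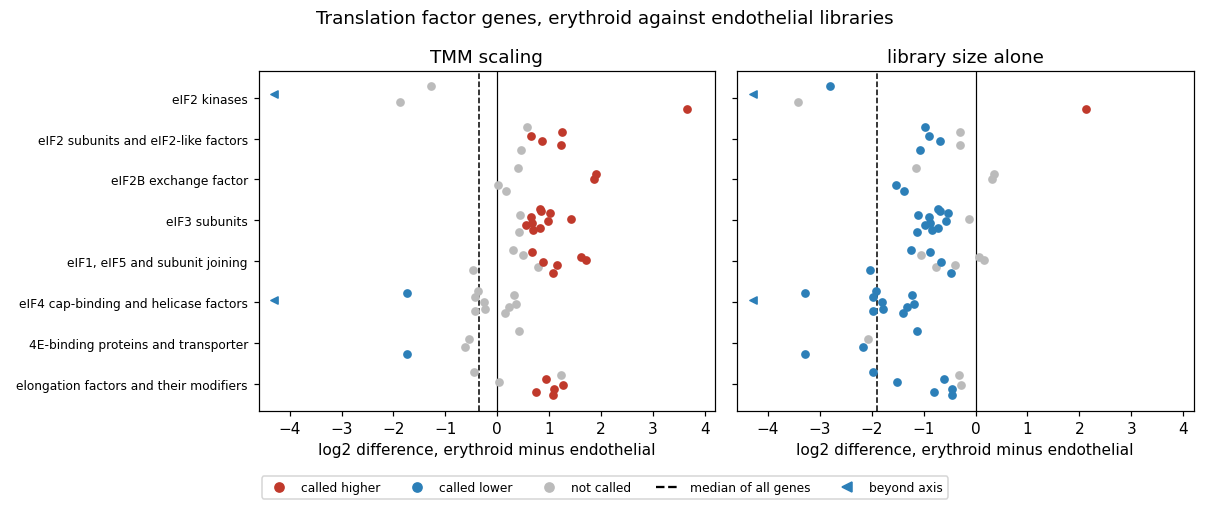
Each point is 1 tested gene, placed by its log2 difference between erythroid and endothelial libraries and grouped by complex. The left panel uses TMM scaling and the right panel library size alone; red and blue mark genes called higher and lower, grey marks genes not called, the dashed line is the median of all genes, and triangles mark Eif2ak3 and Eif4e3, which lie beyond the axis. Almost every point moves left together with the all-gene median, and Eif2ak1 is called higher in both panels.

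By complex, the eIF3 subunits form the scaffold on the small ribosomal subunit. Under TMM 10 of 12 tested subunits were higher in erythroid than in endothelial libraries, 0 were lower and the median was 0.76, from 0.41 for Eif3a to 1.43 for Eif3g, but with library size alone 0 were higher and 11 lower. With 1 library left out, 7 to 9 of the 12 were higher under TMM, and Eif3b, Eif3c, Eif3d and Eif3e were the ones that lost their call in at least 1 case. Eif3g had 200 and 171 CPM in double positive, 347, 275 and 336 CPM in erythroid and 122, 132 and 103 CPM in endothelial libraries, so the 3 populations were fully separated. It was 2.69-fold higher in erythroid than in endothelial libraries (log2 difference 1.43, SE 0.16, adjusted p = 0.000164), a difference of -0.12 with library size alone.

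The group of eIF1, eIF5, eIF6 and subunit-joining genes was formed by symbol. It includes Eif5a, Eif5a2, Eif6 and Eif1ad, so it is not limited to start-site and joining factors. In this group 6 of 10 were higher and 0 lower under TMM, with a median of 0.83, from -0.47 for Eif1a to 1.71 for Eif5. Without erythroid replicate 4 Eif1a passed as lower (adjusted p = 0.0431). With library size alone 0 were higher and 5 lower. Eif5, the GTPase-activating partner of eIF2, had 273 and 235 CPM in double positive, 630, 705 and 604 CPM in erythroid and 228, 173 and 191 CPM in endothelial libraries (3.28-fold higher in erythroid than in endothelial, log2 difference 1.71, SE 0.15, adjusted p = 3.52e-05). Eif5a, the hypusine-carrying factor that helps ribosomes through difficult peptides, had 586 and 804 CPM in double positive, 2316, 2123 and 2148 CPM in erythroid and 687, 760 and 698 CPM in endothelial libraries (3.07-fold higher, log2 difference 1.62, SE 0.14, adjusted p = 3.23e-05). The erythroid libraries were the highest for both genes, although with library size alone the differences from endothelial libraries were 0.16 and 0.07. Eif1 was 2.10-fold and its copy Eif1b 1.84-fold higher under TMM, and both were called lower with library size alone (log2 differences -0.48 and -0.67). The share of Eif1b within that pair was 15.4% in double positive, 16.1% in erythroid and 18.1% in endothelial libraries, with overlap in every comparison. Eif5a2 made up at most 1.10% of the eIF5A pair on average in any population.

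Of the 6 eIF2 subunits and eIF2-like factors, 4 were higher and 0 lower under TMM (median 0.75, from 0.46 for Eif2a to 1.24 for Eif2s3x), and with library size alone 0 were higher and 4 lower. The gamma subunit is encoded by the X-linked Eif2s3x and the Y-linked Eif2s3y. Eif2s3x had 11.3 and 19.0 CPM in double positive, 32.4, 41.3 and 31.0 CPM in erythroid and 12.7, 13.2 and 18.3 CPM in endothelial libraries, and passed the test (log2 difference 1.24, adjusted p = 0.0213), a call lost without endothelial replicate 1, endothelial replicate 2 or erythroid replicate 5 (adjusted p = 0.0653, 0.0562 and 0.0689). Eif2s3y did not pass (log2 difference 0.57, adjusted p = 0.201). Its mean share of the pair was 76.4% in double positive, 73.7% in erythroid and 82.2% in endothelial libraries. Single libraries ran from 67.4% to 85.4%, 64.0% to 80.0% and 80.3% to 85.8% in that order. The mix of male and female embryos in the pools is not given here, and Eif2s3x shares 36.2% of its 50-base words with other genes. The share is therefore not read as a trait of a population.

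Of the 5 genes of eIF2B, the exchange factor that eIF2 phosphorylation inhibits, Eif2b3 and Eif2b4 were higher in erythroid libraries and 0 were lower (median 0.40, lowest Eif2b2 at 0.01), against 0 higher and 2 lower with library size alone. Eif2b3, the gamma subunit, had 32.3 and 44.8 CPM in double positive, 129, 121 and 85.8 CPM in erythroid and 32.3, 17.3 and 43.0 CPM in endothelial libraries, 3.63-fold higher in erythroid than in endothelial libraries (adjusted p = 0.0026). Eif2b4, the delta subunit, had 27.9 and 24.3 CPM in double positive, 90.9, 97.7 and 86.1 CPM in erythroid and 28.03, 30.8 and 14.4 CPM in endothelial libraries, 3.75-fold higher (adjusted p = 0.00111). Erythroid libraries were above all others for both, while with library size alone the differences were 0.31 and 0.36 and did not pass.

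The eIF4 factors bind the cap and unwind the mRNA. Under TMM 0 of 11 tested were higher and 2 lower (median -0.26, from Eif4e3 at 0 counts in erythroid libraries to Eif4e at 0.35), and with library size alone all 11 were called lower. Eif4e3, an atypical cap-binding protein, had 3.63 and 6.73 CPM in double positive, 0 in all 3 erythroid and 12.03, 38.3 and 34.1 CPM in endothelial libraries. It was at least 98.6-fold lower in erythroid than in endothelial libraries (adjusted p = 0.000656). Eif4g3, a scaffold of the cap-binding complex, had 19.3 and 18.3 CPM in double positive, 6.53, 16.5 and 8.48 CPM in erythroid and 32.0, 26.6 and 47.0 CPM in endothelial libraries, 3.35-fold lower in erythroid than in endothelial libraries (log2 difference -1.75, SE 0.44, adjusted p = 0.0119). Eif4a1, Eif4a2, Eif4e, Eif4e2, Eif4g1 and Eif4g2 passed in neither direction under TMM.

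Shares within the eIF4 families do not depend on the scaling between libraries. The helicase copy Eif4a2 made up 34.5% ± 0.89 of eIF4A counts per kilobase in double positive libraries (SD, n = 2), 17.8% ± 3.1 in the erythroid group (SD, n = 3) and 24.5% ± 1.3 in the endothelial group (SD, n = 3). The populations did not overlap in any pair, and each exact permutation test gave p = 0.1, the smallest possible, and 0.196 adjusted. Eif4e, the main cap-binding protein, made up 66.9% in double positive, 80.4% in erythroid and 58.1% in endothelial libraries, with Eif4e3 at 3.74% in double positive, 0% in erythroid and 20.4% in endothelial libraries. Eif4g2, a relative of eIF4G that lacks the cap-binding contact, made up 78.3% of eIF4G counts per kilobase in double positive, 85.6% in erythroid and 74.9% in endothelial libraries. Eif4g3 made up 3.09% in double positive, 1.54% in erythroid and 5.72% in endothelial libraries. Double positive and endothelial libraries overlapped for the shares of Eif4e and Eif4g2 (exact permutation p = 0.4 and 0.5). The Eif4e share ran from 47.5% to 69.1% among endothelial libraries.

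**Figure D4:**
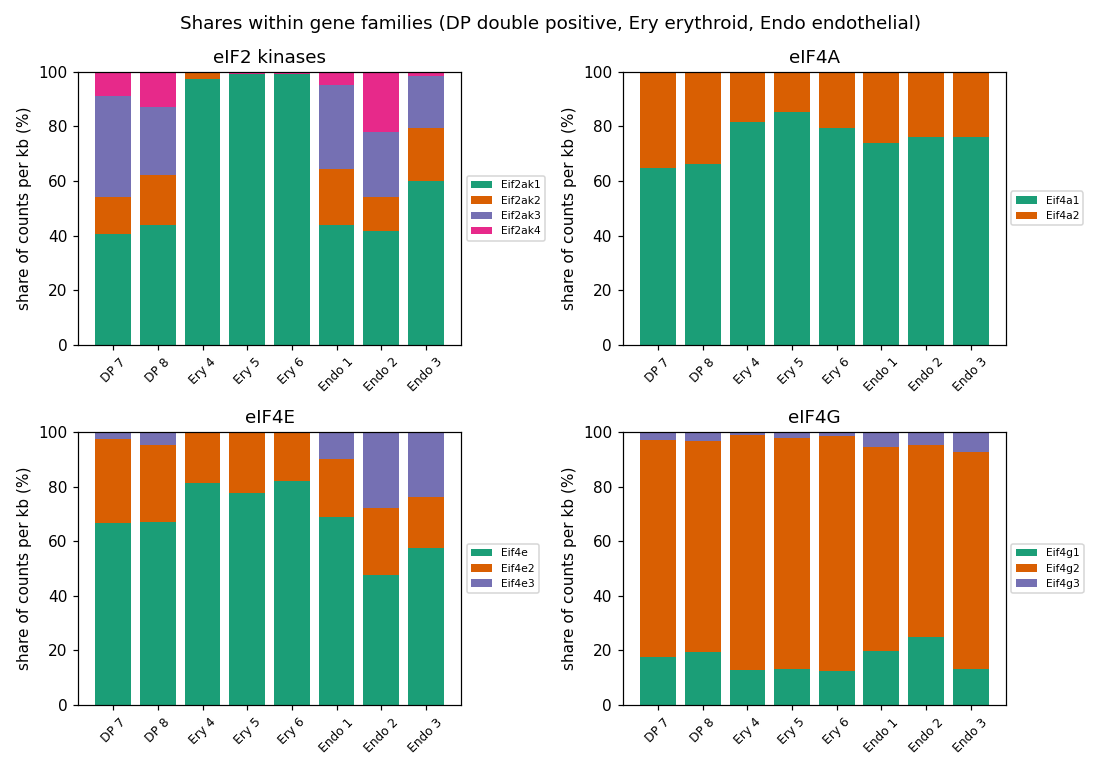
Stacked bars give each gene's share of its family's counts per kilobase of exons in every library, from 0 to 100%. Double positive libraries (DP) stand left, erythroid (Ery) in the middle and endothelial (Endo) right. Eif2ak1 fills nearly all of the kinase bar in erythroid libraries, and Eif4a2 is widest in double positive and narrowest in erythroid libraries.

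The 4E-binding proteins and the eIF4E transporter Eif4enif1 gave 0 of 4 genes higher and 1, Eif4ebp1, lower under TMM, against 0 higher and 3 lower with library size alone. Eif4ebp1, which mTORC1 releases from the cap-binding protein, had 95.8 and 99.3 CPM in double positive, 30.5, 42.5 and 20.9 CPM in erythroid and 126, 116 and 72.5 CPM in endothelial libraries. It was 3.35-fold lower in erythroid than in endothelial libraries (log2 difference -1.74, SE 0.31, adjusted p = 0.0019), and -3.29 with library size alone. Eif4ebp2 and Eif4ebp3 were low in all 8 libraries, at 17.5 CPM or less, and did not pass (log2 differences -0.63 and -0.54). Eif4ebp1 made up 68.0% of the 3 genes in double positive, 80.0% in erythroid and 88.7% in endothelial libraries. Erythroid and endothelial libraries overlapped for that share (exact permutation p = 0.4).

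Of the 8 tested Eef1 and Eef2 genes, 5 were higher and 0 lower in erythroid libraries under TMM. The median was 1.01, from -0.44 for Eef2kmt to 1.26 for Eef1e1. Eef1e1, 1 of the 5, is grouped here by its symbol and belongs to the multi-synthetase complex. With library size alone 0 were higher and 6 lower. Eef1a1, which carries tRNAs to the ribosome, had 2468 and 2679 CPM in double positive, 4396, 4069 and 3884 CPM in erythroid and 1857, 1768 and 2200 CPM in endothelial libraries (2.12-fold higher in erythroid than in endothelial, log2 difference 1.08, SE 0.12, adjusted p = 0.000137). With library size alone the difference was -0.46 and was called lower. The erythroid libraries were therefore the highest for Eef1a1 only under TMM, and Eef1a2, the other copy, had 0 counts.

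Some mRNAs of elongation factors and eIF3 subunits are known to begin with a pyrimidine run through which mTORC1 controls their translation. Of 65 promoter windows of 50 matched genes, 9 (13.8%) held a run of at least 6 pyrimidines beginning with C within 5 bases of the annotated start, against 10.2% of all windows. The annotated starts of Eef1a1 and of Eif3f, an eIF3 subunit, are shown as examples of such a match. Each stretch goes from 10 bases before to 20 from the start, with the run in capitals (RefSeq, GRCm38.p6). Whether the mRNAs begin at these starts was not tested, so a run in capitals may be promoter DNA outside the mRNA.

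Eef1a1 (chr9:78481705-78481734, minus strand): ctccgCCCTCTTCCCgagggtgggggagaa

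Eif3f (chr7:108934405-108934434, plus strand): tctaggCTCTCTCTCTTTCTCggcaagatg

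The 9 genes with such a run had a median log2 difference of 0.57 between erythroid and endothelial libraries with 4 higher, and the 39 tested genes without one had a median of 0.67 with 20 higher and 2 lower. The run minimum was set after the levels were seen. Genes were grouped by annotated starts alone, and a start placed some bases off can change the group. At those starts Eef2, Eef1b2 and Eif4b had runs of 1, 2 and 2 bases, and Eif2ak4 had 5 in one window and 7 in another. The groups may therefore not separate pyrimidine-run mRNAs from others.

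Double positive against endothelial libraries gave 7 genes higher and 2 lower of 60 under TMM, against 14.6% of all genes higher, 6.92% lower and 21.6% either way. The 2 populations did not overlap for 31 of the 60 genes and for 57.5% of all genes. The median was 0.24 for the set and 0.06 for all genes. The 7 were Eif3k, Eif3m, Eif3h, Eif3g, Eif2b1, Eif5b and Eef1e1, so 4 of the 12 tested eIF3 subunits were higher and 0 lower (median 0.51; 0 higher and 2 lower with library size alone). Eif3k, an eIF3 subunit, had 240 and 233 CPM in double positive and 109, 102 and 132 CPM in endothelial libraries, a clear gap (2.07-fold higher, log2 difference 1.05, SE 0.17, adjusted p = 0.00287). Eif2b1, the alpha subunit of eIF2B, had 102 and 112 CPM in double positive and 59.2, 53.3 and 50.4 CPM in endothelial libraries (1.96-fold higher, adjusted p = 0.0092). Eef1e1, a small protein that belongs to the multi-synthetase complex, was 2.52-fold higher (adjusted p = 0.0197), Eif3m 1.72-fold (adjusted p = 0.0185), Eif3h 1.64-fold (adjusted p = 0.0191) and Eif5b, the subunit-joining GTPase, 1.58-fold higher (adjusted p = 0.0458). With library size alone none of these 7 rises passed, 0 genes were higher and 15 were lower, against 9.21% and 15.7% of all genes.

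The lower genes were Eif4h and Eif1ax, which kept their calls under all 3 scalings. Both other scalings moved the all-gene median down, by -0.63 and -0.22, so these calls could hardly be lost. Eif4h, a helper of the eIF4A helicase, had 113 and 116 CPM in double positive libraries. It had 178, 157 and 204 CPM in erythroid and 286, 199 and 213 CPM in endothelial libraries. Under TMM the double positive libraries were therefore the lowest of all 8 (2.04-fold lower than endothelial, log2 difference -1.03, SE 0.21, adjusted p = 0.00897). Eif1ax, an X-linked copy of eIF1A, had 35.4 and 53.2 CPM in double positive, 166, 152 and 191 CPM in erythroid and 81.3, 74.0 and 73.0 CPM in endothelial libraries (1.72-fold lower than endothelial, adjusted p = 0.0385). The counts changed when single libraries were left out. A fit with 1 double positive library takes its spread from the other populations, and that library is assumed to vary like them. Without replicate 7 there were 2 higher and 0 lower, without replicate 8 there were 1 higher and 1 lower, and with any 1 endothelial library left out Eif4h alone was lower (adjusted p for Eif1ax from 0.0578 to 0.0843). Of the higher genes, Eif5b lost its call without any 1 endothelial library (adjusted p from 0.0632 to 0.116), Eef1e1 without replicate 1 or 2 (0.0591 and 0.0551), Eif3g without replicate 1 or 3 (0.0704 and 0.0909) and Eif3m without replicate 3 (0.0573).

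Double positive against erythroid libraries gave 7 genes higher and 17 lower, against 31.5% of all genes higher, 10.6% lower and 42.0% either way. There was no overlap for 45 of 60 genes and for 67.5% of all genes. The median was -0.27 for the set and 0.71 for all genes. With library size alone 33 genes were higher and 3 lower, against 47.5% and 3.90% of all genes. All 7 of the higher genes kept their call under the 3 scalings. Both other scalings moved the all-gene median up, by 0.90 and 0.34, so a higher call could hardly be lost. By complex, the eIF1, eIF5, eIF6 and subunit-joining group gave 0 of 10 higher and 6 lower (3 higher and 2 lower with library size alone). The eIF3 subunits gave 0 of 12 higher and 3 lower (8 higher and 0 lower with library size alone). The eIF4 factors gave 3 of 11 higher and 1 lower (10 higher and 0 lower with library size alone). The higher genes were Eif2ak3, Eif4e3, Eif4ebp1, Eif4ebp2, Eif4a2, Eif4e2 and Eif2b1. Eif4ebp1 was 3.11-fold higher (log2 difference 1.64, SE 0.33, adjusted p = 0.00447), Eif4ebp2 higher by 2.30 on the log2 scale (adjusted p = 0.0465), Eif4a2 1.87-fold (adjusted p = 0.016), Eif4e2 1.66-fold (adjusted p = 0.0236), Eif2b1 1.75-fold (adjusted p = 0.0113) and Eif4e3 at least 18.1-fold higher (adjusted p = 0.00383). Of the 17 lower genes, Eif2ak1, Eif1ax and Eif5a kept their call under all 3 scalings. Eif5a was 3.16-fold lower (log2 difference -1.66, SE 0.16, adjusted p = 8.82e-05) and Eif1ax 3.83-fold lower (adjusted p = 0.000306). Eif2b4, Eif2b3 and Eif5 were 3.51-fold, 2.90-fold and 2.54-fold lower under TMM (adjusted p = 0.00374, 0.0142 and 0.000361), and none of them passed with library size alone. Without double positive replicate 7 the counts were 3 higher and 9 lower, and without replicate 8 they were 3 higher and 12 lower, again with the spread taken from the other populations. Eif2b1, Eif4a2, Eif4e2 and Eif4ebp2 lost their calls in both cases, and Eif2b3 without replicate 7 (adjusted p = 0.113). Eif4e2 also lost its call without erythroid replicate 4 or 6 (adjusted p = 0.0501 and 0.058) and Eif4ebp2 without erythroid replicate 5 or 6 (adjusted p = 0.0743 and 0.087). Without erythroid replicate 5, Eif4ebp3, Eif4g3, Eif2s3y and Eif2d passed as well (adjusted p = 0.0254, 0.043, 0.0469 and 0.0407). Without erythroid replicate 4, Eif1a passed as higher in double positive libraries (3.43-fold, adjusted p = 0.00996).

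The comparisons share libraries, so genes called in a pair of them are only counted here. Under TMM 15 genes were higher in erythroid libraries than in both other populations, a pattern of 7.63% of all tested genes. Eif2ak3, Eif4e3 and Eif4ebp1 were lower there than in both others, as were 20.1% of all genes. Eif2b1 alone was higher in double positive libraries than in both others (9.33% of all genes), and Eif1ax and Eif4h were lower (1.60%). Both Eif2b1 calls were lost without either double positive library (log2 differences from endothelial 1.05 and 0.89), as were both Eif4h calls (from erythroid -0.63 and -0.64). The Eif4h call against erythroid libraries was also lost without erythroid replicate 4 or 6 (adjusted p = 0.0613 and 0.0847). With library size alone that difference was 0.26. In endothelial libraries 6 genes were lower than in both others (5.27%), 4 of them eIF3 subunits, and 22 passed in no comparison (44.5%). With library size alone Eif2ak1 was the 1 gene higher in erythroid libraries than in both others (1.95% of all genes), and 31 were lower (39.1%). In double positive libraries 0 were higher (7.64%), and Eif1ax and Eif5a were lower (1.57%). In endothelial libraries 0 were lower (1.54%), and 11 passed in no comparison (26.4%). The double positive libraries held the visceral endoderm and mesenchyme transcripts given above, and the part of those cells in these values was not tested.

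The wider translation pathway was read from 5 other gene lists. Their counts stand against the shares of all tested genes called higher and lower. Under TMM these were 14.4% and 26.6% for erythroid against endothelial libraries. For double positive libraries they were 14.6% and 6.92% against endothelial and 31.5% and 10.6% against erythroid libraries. With library size alone they were 3.46% and 59.9%, 9.21% and 15.7%, and 47.5% and 3.90%, in the same order. In the integrated stress response, which eIF2 phosphorylation starts, erythroid libraries had 3 of 13 tested genes higher and 2 lower than endothelial libraries, with a median of 0.21, against 2 higher, 6 lower and a median of -1.33 with library size alone. Asns, asparagine synthetase, had 33.8 and 45.5 CPM in double positive, 342, 406 and 283 CPM in erythroid and 25.8, 30.6 and 12.9 CPM in endothelial libraries (14.9-fold higher in erythroid than in endothelial, adjusted p = 3.39e-05). Trib3, a pseudokinase induced by the pathway, had 7.07 and 5.50 CPM in double positive, 45.7, 96.5 and 47.6 CPM in erythroid and 0, 1.63 and 2.10 CPM in endothelial libraries (50.9-fold higher, adjusted p = 0.000972). The fitted fold for Trib3 was 33.2 without endothelial replicate 1 and 79.1 without endothelial replicate 3, with the call kept in each case. Both rises also passed with library size alone. Atf4, the central transcription factor of the response, was 2.28-fold higher (adjusted p = 0.000737), but -0.35 on the log2 scale with library size alone. Atf3 and Ddit4, which stress also induces, had 0 counts in erythroid libraries and were at least 192-fold and 19.0-fold lower (adjusted p = 0.000568 and 0.0104). These bounds fell to 102.5-fold for Atf3 without endothelial replicate 3 and to 10.5-fold for Ddit4 without endothelial replicate 1.

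In double positive libraries the stress list gave 0 higher and 1 lower against endothelial and 3 higher and 4 lower against erythroid libraries. These counts were 0 and 1, and 4 and 2, with library size alone. Ppp1r15a, which encodes a subunit of the eIF2 phosphatase, had 52.2 and 51.4 CPM in double positive, 159, 200 and 153 CPM in erythroid and 173, 142 and 211 CPM in endothelial libraries. Its double positive level was 3.38-fold lower than in endothelial libraries (adjusted p = 0.00103) and 3.30-fold lower than in erythroid libraries (adjusted p = 0.000459), and both calls held with library size alone. Against erythroid libraries, double positive libraries also had 8.67-fold less Asns (adjusted p = 0.00031), 1.96-fold less Atf4 (adjusted p = 0.00504, not passed with library size alone) and at least 115-fold more Atf3 (adjusted p = 0.00116).

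Of 22 genes of the cytoplasmic aminoacyl-tRNA synthetases, the enzymes that load tRNAs, erythroid libraries had 9 higher and 0 lower than endothelial libraries under TMM (median 0.78), against 2 higher and 10 lower with library size alone. The 2 were Nars and Hars, the asparagine and histidine enzymes. Nars had 250 and 233 CPM in double positive, 1020, 1035 and 917 CPM in erythroid and 122, 99.9 and 128 CPM in endothelial libraries (8.51-fold higher in erythroid than in endothelial, adjusted p = 1.52e-06), and Hars was 4.66-fold higher (adjusted p = 0.000172). In double positive libraries 3 were higher and 1 lower than in endothelial libraries, and 0 were higher and 11 lower than in erythroid libraries (median -0.94). Under library size alone the counts were 0 higher and 6 lower against endothelial and 4 higher and 5 lower against erythroid libraries (median -0.03). Of the 11, Nars was 4.11-fold, Mars 4.89-fold and Hars 4.44-fold lower, and each of these calls held with library size alone (adjusted p under TMM = 2.99e-05, 0.000517 and 0.000572). The double positive level of Wars, the tryptophan enzyme, was 4.17-fold lower than the endothelial one (adjusted p = 0.000967).

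Of 11 other initiation factors, erythroid libraries had 4 higher and 0 lower than endothelial libraries (median 0.21), against 1 higher and 8 lower with library size alone. Pabpc1, the cytoplasmic poly(A)-binding protein that bridges to eIF4G, had 226 and 219 CPM in double positive, 742, 871 and 785 CPM in erythroid and 147, 150 and 139 CPM in endothelial libraries, with no overlap between populations (5.50-fold higher in erythroid than in endothelial, adjusted p = 2.01e-06). It was also higher with library size alone (log2 difference 0.91). Abce1, the ribosome recycling factor, was 2.40-fold higher under TMM (adjusted p = 0.000146) and -0.28 on the log2 scale with library size alone. Double positive libraries had 3 of the 11 higher and 0 lower than endothelial libraries, and 2 higher and 3 lower than erythroid libraries, among them Pabpc1 at 3.59-fold lower (adjusted p = 2.7e-05), which held with library size alone. Scaled by library size alone, the list gave 1 higher and 2 lower against endothelial and 7 higher and 2 lower against erythroid libraries.

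Of the 8 termination and rescue genes, erythroid libraries had 2 higher and 0 lower than endothelial libraries (Hbs1l 2.47-fold and Etf1 2.40-fold higher, adjusted p = 0.0056 and 0.00664), and with library size alone 0 higher and 5 lower. They gave 0 calls between double positive and endothelial libraries (edgeR, with 0 at an unadjusted p under 0.05 and 0 calls by DESeq2 or limma-voom) and 1 lower, Etf1, against erythroid libraries. That call was lost without either double positive library or without erythroid replicate 4 (adjusted p = 0.0965, 0.173 and 0.077), and with library size alone 4 of the 8 were higher and 0 lower than in erythroid libraries. Of 16 genes of mTORC1 and its translation arm, erythroid libraries had 1 higher and 3 lower than endothelial libraries (median -0.48). With library size alone 0 were higher and 13 lower (median -2.03). The medians of all genes were near these, at -0.36 and -1.90. Pdcd4, an inhibitor of the eIF4A helicase, had 43.0 and 62.8 CPM in double positive, 0.932, 0.635 and 0.652 CPM in erythroid and 10.1, 2.77 and 10.8 CPM in endothelial libraries. The 3 populations did not overlap: it was 10.7-fold lower in erythroid than in endothelial (adjusted p = 0.00357), 6.71-fold higher in double positive than in endothelial (adjusted p = 0.0123) and 71.5-fold higher in double positive than in erythroid libraries (adjusted p = 0.000271). Each of these calls held with library size alone, but the call against endothelial libraries in double positive cells was lost without double positive replicate 7 or 8 (adjusted p = 0.0602 and 0.159). Sesn1, a negative regulator of mTORC1, had 9.37 and 13.5 CPM in double positive, 17.7, 6.35 and 21.5 CPM in erythroid and 33.6, 133 and 57.2 CPM in endothelial libraries. It was 4.90-fold lower in erythroid than in endothelial libraries (adjusted p = 0.0132), but without endothelial replicate 2, the highest library, the difference was 3.00-fold and did not pass (adjusted p = 0.0559). Rptor, the scaffold of mTORC1, had 3.82 and 6.93 CPM in double positive, 3.96, 0 and 0.652 CPM in erythroid and 7.93, 14.3 and 21.2 CPM in endothelial libraries, a 9.41-fold lower level in erythroid libraries (adjusted p = 0.0476). Without erythroid replicate 4 it was 43.2-fold lower (adjusted p = 0.00702), and the call was lost without any 1 of the other 5 erythroid and endothelial libraries (adjusted p from 0.0523 to 0.127). Larp1, which binds pyrimidine-run mRNAs, was 3.49-fold higher in erythroid than in endothelial libraries (adjusted p = 0.0127), with a log2 difference of 0.27 that did not pass under library size alone. Its endothelial levels were 8.46, 31.9 and 13.7 CPM, and without endothelial replicate 2 the difference was 5.64-fold (adjusted p = 0.00161). Double positive libraries had 2 of the 16 higher, Pdcd4 and Rragc, and 1 lower, Sesn1, than endothelial libraries. The Rragc call was lost without any 1 double positive or endothelial library. The Sesn1 call was lost without either double positive library or without endothelial replicate 2. Against erythroid libraries 4 were higher and 0 lower. Those 4 were Pdcd4, Rragc, Deptor and the kinase gene Mtor itself. Mtor was 2.83-fold higher in double positive than in erythroid libraries (adjusted p = 0.0148). Its call and that of Deptor were lost without either double positive library, and that of Rragc without replicate 7. Deptor had 7.84 and 5.50 CPM in double positive and 0.233, 0 and 0 CPM in erythroid libraries. The list gave, with library size alone, 1 higher and 3 lower against endothelial and 6 higher and 0 lower against erythroid libraries.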

How the data were processed

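Each of the 8 libraries was made from polyadenylated RNA of 24 or 25 sorted cells by Smart-seq2 with 14 PCR cycles and no molecular identifiers, per the labels' protocols. The table the authors deposited holds unscaled counts of reads for each gene symbol. The submitters' processing notes name FastQC, HTSeq and mm10. The sources used here give no version, aligner, annotation or strand setting. Columns were assigned to samples by the titles, and no 2 libraries were identical. Intervals and floors cover counting error only.

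The filter filterByExpr (minimum count 10) kept 12136 genes. Counts were scaled by TMM, and edgeR 4.0.16 (R 4.3.3) fitted a quasi-likelihood model to the 8 libraries together, with a separate mean for each population. Calls are two-sided at a Benjamini-Hochberg adjusted p under 0.05 over all tested genes. Folds against a population at 0 use 3 counts over the population. Shares use exon lengths from GENCODE M21, with exact permutation tests that cannot go under 0.1. Tables were made with python 3.11.15 and pandas 2.3.3. Genes named are the eIF2 kinases, the paralog families, and in each comparison up to 6 rises and 6 falls that reach 20 CPM on average in one population without overlap of libraries, plus the smallest adjusted p-values of each other list. The other genes are given by complex. The members and lists were chosen with earlier results of these data known. Alternatives were DESeq2 1.42.0, limma-voom (limma 3.58.1), library size alone, RLE factors, removal of the globin genes, no filter, a stricter filter at 50 counts, fits of just the 2 populations compared, each library left out, and, chosen after seeing the data, TMM over the translation factor genes.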

Additional observations from a re-analysis of the deposited data

How the results depend on the processing

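Of the 34 named genes in 3 comparisons, leaving out 1 library at a time kept 484 results on their side of the threshold, lost 54, gained 6 and reversed 0. The other settings kept 810, lost 44, gained 37 and reversed 27. Of these reversals 26 came from library size alone, where the median of all genes itself shifts by -1.54, -0.63 and 0.90, and 1 from TMM over the translation factor genes. For erythroid against endothelial libraries the reversed log2 differences with library size alone were -1.40 for Eif4a1, -1.19 for Eif4e, -1.22 for Eif4g2, -0.48 for Eif1, -0.67 for Eif1b, -0.46 for Eef1a1, -0.30 for Eif2s3x, -0.97 for Eif2s3y, -0.12 for Eif3g, -0.28 for Eef1e1, -0.54 for Eif3k, -1.38 for Eif2b1, -0.73 for Eif3m, -0.90 for Eif3h, -0.87 for Eif5b and -0.39 for Eif1ax, and -0.42 for Eif4a1 with TMM over the translation factor genes. For double positive against endothelial libraries they were -0.57 for Eif4g2 and -0.60 for Eif1. For double positive against erythroid libraries they were 0.55 for Eif4a1, 0.80 for Eif4e, 0.65 for Eif4g2, 0.23 for Eef1a1, 0.13 for Eif3g, 0.87 for Eif3m, 0.90 for Eif5b and 0.26 for Eif4h. Erythroid against endothelial counts of 28 higher and 4 lower became 1 and 44 with library size alone and 10 and 12 with TMM over the translation factor genes, and DESeq2 gave 7 lower. Double positive against endothelial counts of 9 calls, 7 higher and 2 lower, became 15 calls, 0 higher and 15 lower with library size alone, 4 higher with TMM over the translation factor genes and 11 higher with limma-voom. Double positive against erythroid counts of 7 higher and 17 lower became 33 and 3 with library size alone, and 11 lower with TMM over the translation factor genes. With 1 library left out, calls for erythroid against endothelial ran from 28 to 31 (24 to 27 higher, 4 to 6 lower), for double positive against endothelial from 2 to 6 (1 to 5 higher, 0 to 1 lower) and for double positive against erythroid from 12 to 26 (3 to 8 higher, 9 to 18 lower). The Eif2ak1 share differed by 46.6 to 55.9 points between erythroid and endothelial, -9.78 to -0.49 between double positive and endothelial and -57.9 to -54.8 between double positive and erythroid libraries. The share of Eif2ak1 among the kinases differed by -60.2 points between double positive and erythroid libraries without division by gene length, against -56.4. The cause of these changes was not tested. Depth limits the low genes: 3 counts over a population correspond to 0.296 CPM in double positive, 0.286 in erythroid and 0.151 in endothelial libraries. No paired analysis was possible because the replicate numbers run from 1 to 8 and no 2 populations share one.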
